A study of Mus musculus with 12 samples.

Results

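The regions described here are peaks of lysine crotonylation (Kcr) that were called in both of 2 mouse dorsal hippocampus libraries and that lie at an end of a protein-coding gene. A peak of the learning list on chromosomes 1 to 19 was taken if it overlapped a peak of the homecage list by at least 1 bp and also overlapped a window of 1 kb on either side of the start or end of a protein-coding gene in RefSeq for GRCm38. Of the 15844 learning peaks on these chromosomes, 2183 (13.8%) met both conditions, and both lists together held 348411 peaks on all sequences. They are called shared gene-end peaks below. Peak positions in both lists and gene positions chose them, so that they are shared and that they lie near genes is a description and not a result. The start or end of the gene, the side of the start, the promoter sequence and the class of gene were not used in the choice.

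Both libraries came from dorsal hippocampus of C57BL/6J mice, a common inbred laboratory strain. In the learning condition the mice had been trained in spatial object recognition, a task in which mice notice that an object has been moved, and in the homecage condition they had stayed in their home cage. Tissue was fixed with formaldehyde and sheared by sonication, and chromatin was precipitated with a pan-Kcr antibody (PTM BIO, PTM-501), which binds crotonylated lysine whatever the protein or residue that carries it. The labels of these libraries name no drug, age or sex, and they do not say whether a library pools animals. The matching input libraries and the 8 single-nucleus libraries of the series, from mice given crotonate or saline, were not analysed here.

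Each condition had 1 library, so no difference between conditions has a replicate check and no p-value is given. There were 16243 peaks in the learning list and 332168 in that of the homecage condition, which makes overlap with a homecage peak far easier to reach than the reverse. The lists give a position and a width for each peak and no strength or read number, so the depth behind them is unknown. Intervals are exact Clopper-Pearson 95% intervals. They allow only for counting error among independent items, and neighbouring peaks and related genes are not independent.

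Crotonylation is an acyl mark placed on histone lysines from crotonyl-CoA. Acetyltransferases such as p300 (Ep300) and CBP write it, class I histone deacetylases and some sirtuins remove it, and proteins with a YEATS or double PHD finger domain read it. On histones it is known chiefly from the starts of active genes, beside acetylation. Most mouse genes that are used in many cell types start in a CpG island, a stretch rich in C and G in which the dinucleotide CG has not been depleted, whereas many tissue-restricted genes start in DNA that is poor in CG.

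The 250 bases before the annotated start are shown for 6 genes, because CG content is the promoter property on which the results below turn. The sequences are from RefSeq (GRCm38.p6), run 5′ to 3′ on the strand of the gene, and have each CG in capitals. The 6 genes were picked after their values were seen. The first 3 are CG-dense promoters that carry a shared gene-end peak, of genes for a histone methyltransferase (Setd1a), a Mediator kinase module subunit (Med13) and a zinc finger protein (Zfp592). Ndufb2, which encodes a subunit of respiratory complex I, carries one in a promoter below the CpG-rich threshold. Hoxd13, a homeobox gene of limb and body-axis patterning, has a CG-dense promoter with no peak in either list. P2ry12, a purine receptor gene that marks microglia, has a CG-poor promoter with a homecage peak only.
Setd1a: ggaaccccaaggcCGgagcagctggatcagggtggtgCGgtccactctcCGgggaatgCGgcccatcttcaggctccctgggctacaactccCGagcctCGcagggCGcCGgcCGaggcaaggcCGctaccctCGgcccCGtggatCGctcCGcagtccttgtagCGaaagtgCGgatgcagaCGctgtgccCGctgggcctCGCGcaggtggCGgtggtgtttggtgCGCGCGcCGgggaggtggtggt
Med13: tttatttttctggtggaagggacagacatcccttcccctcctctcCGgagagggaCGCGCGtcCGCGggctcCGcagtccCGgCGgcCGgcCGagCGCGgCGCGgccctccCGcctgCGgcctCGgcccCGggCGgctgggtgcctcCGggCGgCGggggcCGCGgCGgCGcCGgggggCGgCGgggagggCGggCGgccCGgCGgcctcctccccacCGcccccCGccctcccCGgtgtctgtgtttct
Zfp592: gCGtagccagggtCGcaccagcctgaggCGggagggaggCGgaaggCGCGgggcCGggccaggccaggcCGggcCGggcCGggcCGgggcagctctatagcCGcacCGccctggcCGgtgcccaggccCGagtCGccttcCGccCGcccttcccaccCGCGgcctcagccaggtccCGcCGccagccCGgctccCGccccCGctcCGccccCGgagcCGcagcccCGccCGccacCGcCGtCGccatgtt
Ndufb2: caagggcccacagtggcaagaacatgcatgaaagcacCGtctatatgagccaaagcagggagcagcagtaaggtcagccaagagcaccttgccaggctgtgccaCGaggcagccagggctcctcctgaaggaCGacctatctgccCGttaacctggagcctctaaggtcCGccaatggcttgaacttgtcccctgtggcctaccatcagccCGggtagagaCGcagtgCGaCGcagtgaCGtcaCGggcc
Hoxd13: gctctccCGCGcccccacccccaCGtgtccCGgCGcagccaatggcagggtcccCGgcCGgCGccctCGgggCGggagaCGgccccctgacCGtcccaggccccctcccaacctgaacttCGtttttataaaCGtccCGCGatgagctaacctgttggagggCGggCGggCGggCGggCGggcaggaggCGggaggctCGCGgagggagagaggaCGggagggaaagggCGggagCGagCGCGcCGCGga
P2ry12: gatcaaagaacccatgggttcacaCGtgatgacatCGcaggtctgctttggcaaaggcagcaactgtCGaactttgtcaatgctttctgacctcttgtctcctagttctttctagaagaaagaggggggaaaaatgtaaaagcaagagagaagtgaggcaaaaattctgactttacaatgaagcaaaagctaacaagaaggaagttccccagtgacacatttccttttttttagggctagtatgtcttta

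The Setd1a stretch is chr7:127777139-127777388 on the plus strand, with 25 CG and 70.4% G+C, and the shared gene-end peak covers 183 of its 250 bases. The Med13 stretch, chr11:86357597-86357846 on the minus strand, has 37 CG and 80% G+C and lies wholly under its peak. The Zfp592 stretch, chr7:80993434-80993683 on the plus strand, has 33 CG and 81.6% G+C and is also wholly covered. These 3 genes thus have all or part of the 250 bases before the start under a peak. Among all shared gene-end peaks, 15.3% covered an annotated start or end. The Ndufb2 stretch, chr6:39592315-39592564 on the plus strand, has 11 CG and 60% G+C, with 215 bases under the peak. The Hoxd13 stretch, chr2:74667975-74668224 on the plus strand, has 31 CG and 74.4% G+C. The P2ry12 stretch, chr3:59262986-59263235 on the minus strand and within the span of the gene Med12l, has 3 CG and 41.6% G+C. A CG-dense promoter therefore occurs both with a peak (Med13) and without one (Hoxd13).

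The shared gene-end peaks lay at 2375 of 20665 protein-coding genes on chromosomes 1 to 19, which is a background of 11.5% of genes for all counts by gene class below. With any learning peak counted, 3409 genes (16.5%) had a peak at an end, and with any homecage peak 13278 genes (64.3%). Of the 2183 peaks, 1908 lay at the end of 1 gene, 265 at the ends of 2 genes and 10 at 3 or more. The chromosome with the smallest share of genes was chromosome 7 (8.13%, 6.98 to 9.40%), which holds many olfactory and vomeronasal receptor genes. The largest share was on chromosome 1 (13.8%, 11.9 to 15.9%). Predicted genes, named by Gm numbers, Rik or LOC names, carried a shared gene-end peak in 115 of 1490 cases (7.72%, 6.41 to 9.19%), and genes with other names in 2260 of 19175 (11.8%, 11.3 to 12.3%).

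Nearly all of these peaks sat at gene starts. The gene table gives no strand, so starts were told from ends through RefSeq promoter entries, which gave a strand for 1880 of the 2375 genes (79.2%). The entries hold none for chromosome 18. On the other 18 autosomes, 1880 of 2319 genes (81.1%) had one, and results on strand and promoter sequence are for those chromosomes. Of 1745 shared gene-end peaks at genes with a known strand, 1654 (94.8%, 93.6 to 95.8%) lay within 1 kb of a gene start. Of these, 1579 were at starts only and 75 at a start and an end, and 91 peaks were at ends only. Learning peaks at gene ends with no homecage partner (986 in all) lay at starts in 723 of 817 cases (88.5%, 86.1 to 90.6%). Homecage peaks at gene ends with no learning partner (14667 in all) did so in 7415 of 11975 (61.9%, 61.0 to 62.8%). The share at starts was thus higher for the shared gene-end peaks than for either unshared set, and the intervals did not overlap.

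At starts, the peaks lay inside the gene rather than over the start or upstream of it. Along 14811 gene starts oriented by strand, coverage by shared gene-end peaks was highest 300 bp downstream of the start, where 6.40% of starts were covered. It was 2.25% at the start itself and 1.38% at 300 bp upstream, so the downstream level was 4.65 times the level at the same distance upstream. The homecage peaks that overlap them were highest at 325 bp downstream, 7.90% of starts against 2.81% at the mirror position, a ratio of 2.81. Homecage-only peaks, here all of them and not only those at gene ends, were also highest 300 bp downstream. Their coverage was 16.8% against 8.42%, a ratio of 1.99, and was still 5.33% at 2000 bp upstream. The other lists hold peaks chosen at gene ends or overlapping such peaks, so their low coverage at 2000 bp follows from the choice. The ratio of 1.99 includes peaks away from gene ends and is not a like comparison with the other lists. Learning-only peaks at gene ends, the set most like the shared one, were highest at 275 bp downstream, with 2.10% against 0.601%, a ratio of 3.49. The downstream position was thus common to all lists. The ratio to the mirror position was largest for the shared gene-end peaks, with the learning-only peaks at gene ends next.

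**Figure D1:**
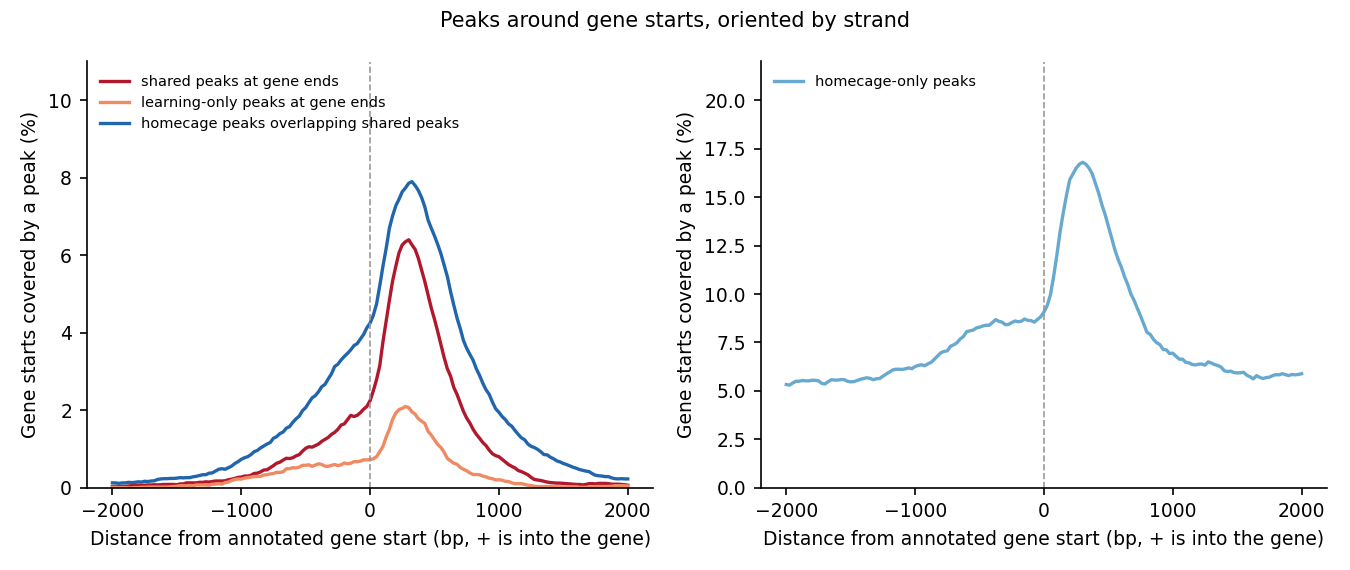
Share of 14811 gene starts covered by a peak (y axis, percent) against distance from the annotated start in bp (x axis, positive into the gene), in steps of 25 bp, for shared gene-end peaks, learning-only peaks at gene ends and the homecage peaks that overlap the shared ones (left) and homecage-only peaks (right, on another y scale). All 4 lines are highest between 275 and 325 bp into the gene. The homecage-only line holds all such peaks, not only those at gene ends, and stays above 5% of starts at 2000 bp on both sides. The lines on the left hold peaks chosen at gene ends or overlapping such peaks, so their low values at 2000 bp follow from the choice.

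By peak centre, 1284 of 1551 shared gene-end peaks at a start with a promoter entry were downstream of it (82.8%, 80.8 to 84.6%). The median centre was 292 bp into the gene, and the central 50% of centres lay between 114 and 428 bp. For learning-only peaks at gene ends the share was 73.4% (482 of 657, 69.8 to 76.7%). For homecage-only peaks at gene ends it was 63.3% (3787 of 5979, 62.1 to 64.6%). A gene on the other strand that starts close by could place peaks on the upstream side. At starts with no opposite start within 2 kb, 83.1% (80.9 to 85.2%) of shared gene-end peaks were downstream, and at starts with one, 81.5% (76.9 to 85.6%). The share was also similar at CpG-rich starts (82.1%, 79.9 to 84.1%) and at other starts (84.2%, 79.4 to 88.2%).

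Regardless of strand, 1700 of the 2183 peaks (77.9%) lay wholly inside a gene, 290 across a gene boundary and 193 outside genes. The annotated start or end itself was covered by 333 peaks (15.3%). At 59 genes there was a shared gene-end peak at both ends, and at 31 of them the ends had different peaks. The 91 end-only peaks were few, and the widest included many at predicted or multicopy genes (5031410I06Rik, Gm21698, Speer4c, Mup19). Others were at Jund, a transcription factor gene of the AP-1 family (707 bp, 790 bp inside the gene end at chr8:70699120-70699826), and at the 3′ end of Apoa1, which encodes the main protein of high-density lipoprotein (635 bp across the gene end). The Jund gene is 2878 bp long, so its peak also centres 1734 bp from its start. A peak of 707 bp at chr8:84705172-84705878 was counted at the ends of the transcription factor genes Nfix and Lyl1, 460 bp inside the first and 456 bp beyond the other.

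Promoters with a shared gene-end peak were more often CpG-rich. A promoter, here the 250 bases before and 50 bases after the start, was called CpG-rich if its CG count was at least 0.6 of that expected from its C and G and its G+C was at least 50%. A shared gene-end peak lay at the start of 1670 of the 14811 genes with a promoter sequence, and 1359 of those 1670 promoters (81.4%, 79.4 to 83.2%) were CpG-rich. Among the 13141 promoters without one, 43.6% (42.7 to 44.4%) were CpG-rich. Median G+C was 65.7% with and 55.7% without a shared gene-end peak, and the median observed-over-expected CG ratio was 0.840 with and 0.544 without.

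Promoters fell in order by the peaks they carried. CpG-rich promoters were 31.8% (30.6 to 32.9%) of the 6658 with no peak in either list. They were 53.7% (52.4 to 55%) of the 5767 with homecage peaks only. They were 68.7% (63.9 to 73.2%) of the 396 with learning peaks only. Where both lists had peaks that did not overlap, the share was 74.1% of 320 (68.9 to 78.8%), which does not differ beyond its interval from the learning-only share. The shared set stood above each of the others, with no overlap of intervals.

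Read the other way, 19.2% (18.3 to 20.1%) of 7082 CpG-rich promoters and 4.02% (3.6 to 4.49%) of 7729 other promoters carried a shared gene-end peak, a ratio of 4.77. For any learning peak, shared or not, the shares were 26.4% and 6.70%, a ratio of 3.94. For any homecage peak the shares were 66.2% and 39.6%, a ratio of 1.67. The homecage list is far longer, and with 39.6% of other promoters covered its ratio has little room to rise, so the ratios are not on 1 scale. With promoters in 10 equal groups by CG ratio, the share with a shared gene-end peak was 0.742% (0.371 to 1.32%) in the lowest group, 10.3% (8.83 to 12%) in group 5 and 22.9% (20.8 to 25.1%) in the highest. The homecage share went from 32.0% to 70.9% over the same groups. The steepest part of the climb for the shared gene-end peaks was between group 4 (3.98%) and group 5. The share also differed within bands of like G+C. Among promoters with 55 to 65% G+C, 14.4% (13.2 to 15.8%) of those with a CG ratio of at least 0.6 carried a shared gene-end peak, against 6.24% (5.14 to 7.49%) of those below. In the band of 45 to 55% G+C the values were 10.3% and 3.38%, and in the band of 65 to 75% they were 21.8% and 14.3%, where the intervals (20.3 to 23.4% and 9.78 to 19.9%) were closest. CpG-rich DNA can also shear and amplify differently, and without the input libraries its part in these shares was not tested.

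**Figure D2:**
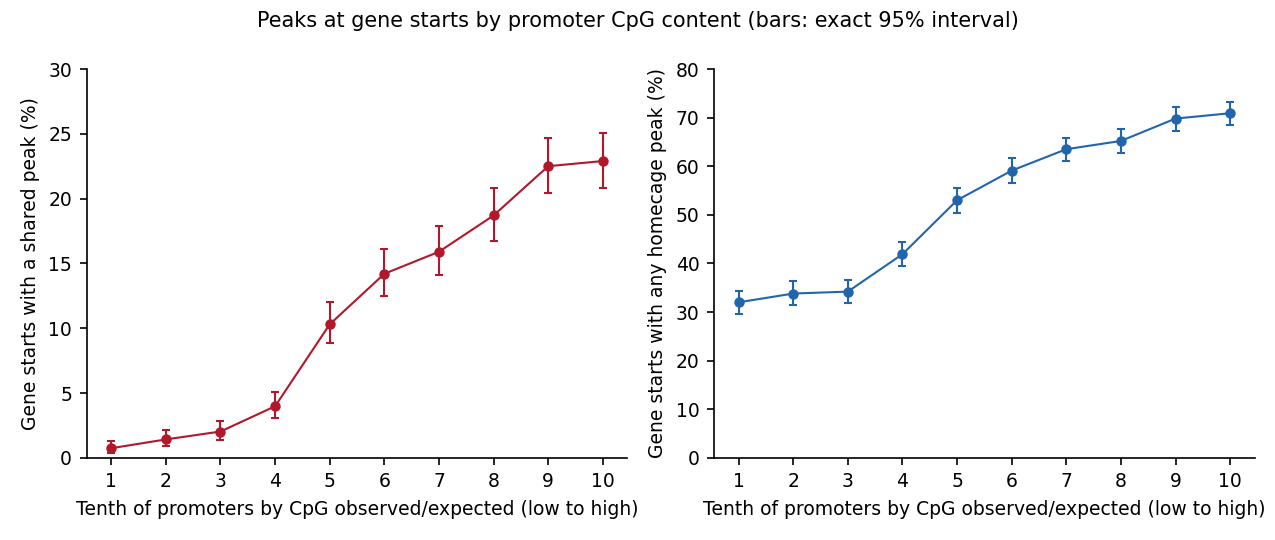
Share of gene starts (y axis, percent) with a shared gene-end peak (left) and with any homecage peak (right) in 10 equal groups of 14811 promoters ordered by observed-over-expected CG ratio (x axis, low to high); points are shares and bars exact 95% intervals. The left panel runs from 0.742% to 22.9% and the right from 32.0% to 70.9%, on different y scales.

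Short motifs known from promoters were searched on both strands of the 250 bases before the start. TATAAA, the TATA box, was found in 3.65% (2.81 to 4.67%) of the 1670 promoters with a shared gene-end peak, in 14% (13.4 to 14.6%) of those without and in 12.9% of all. Within CpG-rich promoters the shares were 2.72% (1.92 to 3.73%) and 4.63% (4.10 to 5.21%). GGGCGG, the GC box to which Sp1-type factors bind, was found in 67.5% with and 41.0% without a peak (44.0% of all), but within CpG-rich promoters in 74.4% (72.0 to 76.7%) and 71.1% (69.9 to 72.3%). The GC box difference was thus small once CpG-rich promoters were set beside each other. CGGCGG was in 40% with and 16.1% without a peak (18.8% of all), and within CpG-rich promoters in 48.1% (45.4 to 50.7%) and 33.8% (32.6 to 35.1%). CGGCGG overlaps GGGCGG in part of its letters, and a G+C-richer promoter holds both more often.

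Among factor motifs, TGANTCA, bound by AP-1 factors, was in 2.75% (2.02 to 3.66%) of promoters with a shared gene-end peak and 6.64% (6.22 to 7.08%) of those without (6.20% of all). Within CpG-rich promoters the shares were 2.21% (1.49 to 3.14%) and 2.87% (2.45 to 3.33%), with overlapping intervals. TGACGTCA, the cAMP response element through which CREB acts, was in 2.81% (2.08 to 3.73%) with and 1.99% (1.76 to 2.25%) without (2.09% of all), also overlapping. CCAAT was in 31.1% with and 37.4% without (36.7% of all), and within CpG-rich promoters in 30.4% (28.0 to 32.9%) and 37.2% (35.9 to 38.4%). CCGGAAG, an ETS motif, was in 13.4% with and 9.07% without (9.56% of all), the NRF1 motif in 9.82% and 5.08% (5.61% of all), and CACGTG, the E-box, in 8.02% and 6.64% (6.80% of all). Within CpG-rich promoters the intervals of all 3 overlapped. In the printed stretches, Med13 holds GGGCGG or its reverse at 7 places and Zfp592 at 6, as Hoxd13 does at 7, and Setd1a and Ndufb2 at none. A match gives the letters only and says nothing of binding.

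Longer genes carried the peaks more often. The median length of genes with a shared gene-end peak was 28179 bp, against 16460 bp for the other genes. With genes in 5 equal groups by length the share went from 5.61% (4.93 to 6.36%; median 1.70 kb) through 10.4%, 10.6% and 13.9% to 17.0% (15.9 to 18.2%; median 109 kb). In genes under 2 kb the windows at the start and the end overlap, which leaves less sequence to hit. How much this lowers the share of short genes was not tested. The shares by length were not compared within CpG-rich promoters or within gene families, so length was not set apart from these. Genes with an opposite start within 2 kb had a shared gene-end peak at the start in 15.8% of 2843 cases (14.5 to 17.2%), against 10.2% of 11968 others (9.67 to 10.8%). Of the former 74.1% were CpG-rich, and of the latter 41.6%. Within CpG-rich promoters the shares were 18.1% (16.5 to 19.8%) and 19.6% (18.5 to 20.8%), with overlapping intervals, so no difference was seen there.

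Gene classes were described with 45 lists, of which 6 are cell type markers. For 8 lists the interval of the share of genes with a shared gene-end peak lay above 11.5%, for 8 it lay below, and for 29 it held that value. With this many lists some intervals miss the background by counting error alone. The 8 higher lists were genes for enzymes that set or remove histone lysine methylation, crotonylation enzymes and readers, circadian clock genes, postsynaptic scaffolds, chromatin remodelers, ubiquitin-conjugating enzymes and ubiquitin proteases, translation initiation factors and C2H2 zinc finger genes.

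**Figure D3:**
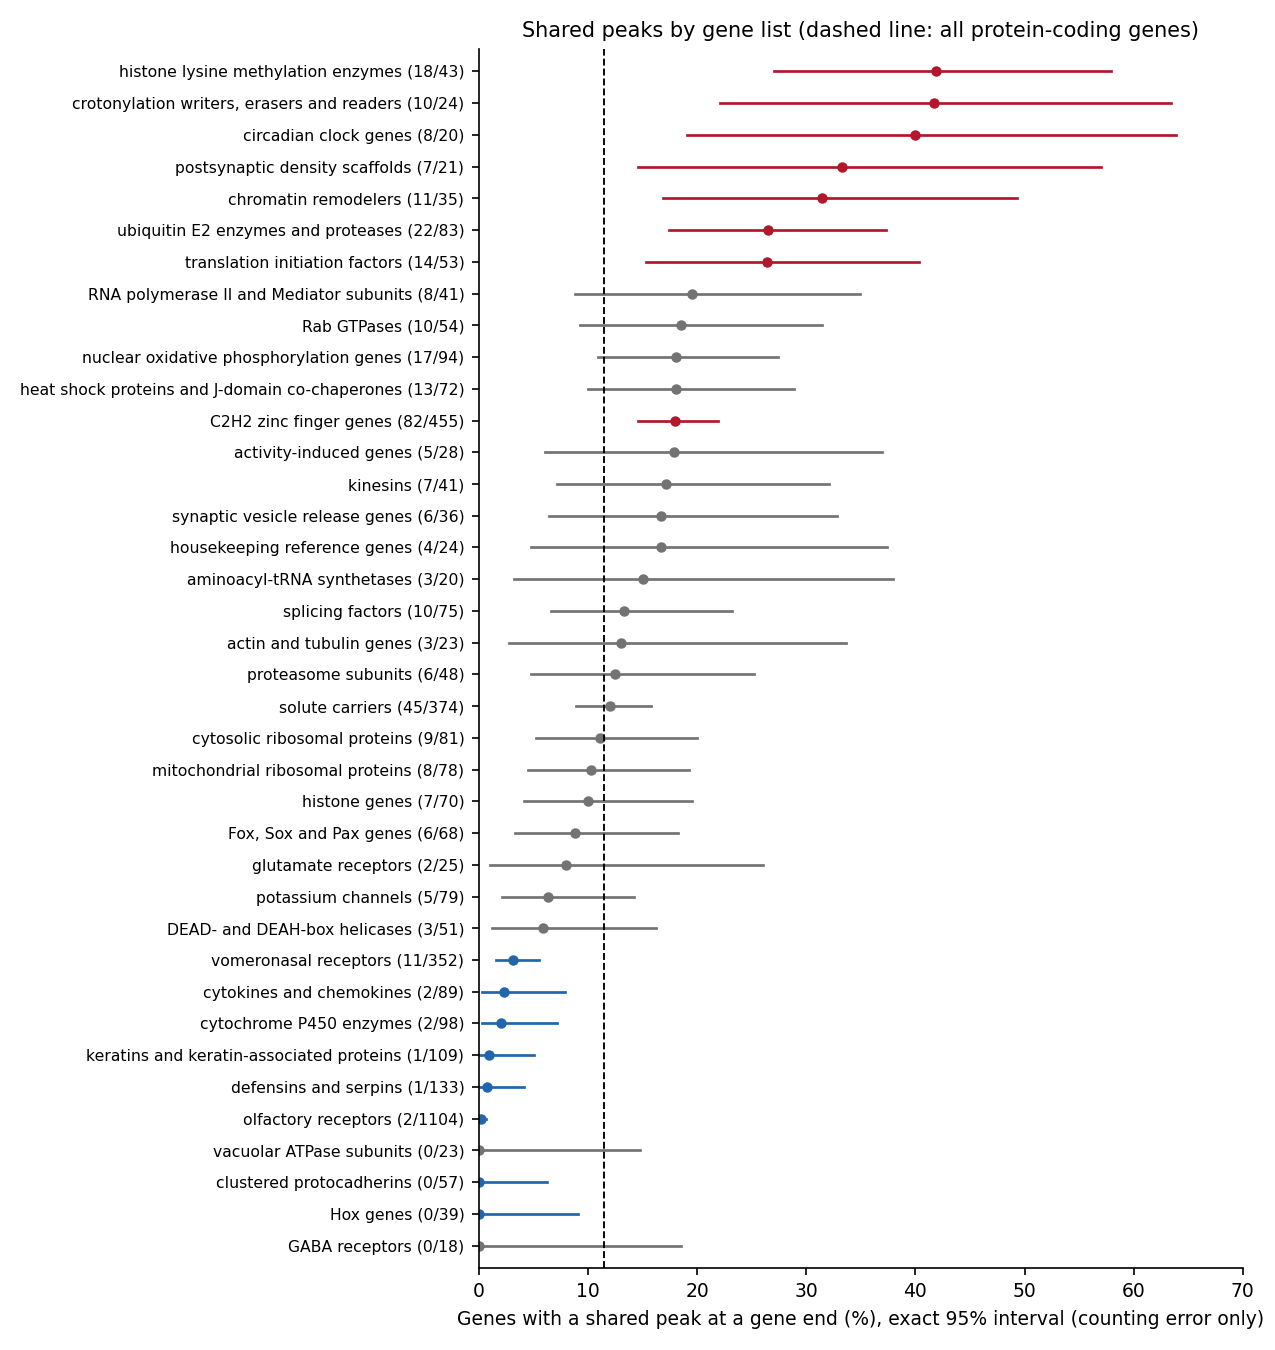
Share of genes with a shared gene-end peak (x axis, percent; points) with its exact 95% interval (lines) for the lists that are not cell type markers, 1 list left out, with genes carrying a peak over genes in the list in brackets; the dashed line is the 11.5% of all protein-coding genes. Intervals above the line are red, below it blue and across it grey; histone lysine methylation enzymes (18 of 43) are at the top, and Hox genes (0 of 39) are among the lists at 0.

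The enzymes and readers of the mark itself were among the carriers. Of 24 genes for crotonylation writers, erasers and readers, 10 (41.7%, 22.1 to 63.4%) had a shared gene-end peak, and 21 had a homecage peak. The writers were Ep300, Kat2a, Kat2b, Kat6a and Kat6b, all genes for lysine acetyltransferases. The erasers were the deacetylase genes Hdac2, Sirt1 and Sirt2, and the readers were Mllt1 and Yeats4, which encode YEATS-domain proteins. The widest peak was at Kat6b (874 bp, chr14:21499209-21500082, across the gene start), of which 63.6% overlapped a homecage peak of 692 bp. The Ep300 peak (635 bp) was upstream, 146 bp before the gene, and 86.9% of it was under a homecage peak. The Kat2b peak (713 bp) began 142 bp inside the gene and lay wholly under a homecage peak of 1784 bp. The narrowest, at Sirt2, was 153 bp wide. At Kat2a, Kat2b, Hdac2, Sirt1, Sirt2 and Mllt1 the peak lay wholly inside the gene.

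Of 43 histone lysine methylation genes, 18 (41.9%, 27.0 to 57.9%) had a shared gene-end peak. They include the H3 lysine 4 methyltransferase genes Kmt2a, Kmt2b, Setd1a and Setd1b, and Kmt2e, which shares the Kmt2 name. They also include the H3 lysine 36 enzymes Setd2 and Nsd1 and the demethylase genes Kdm2a, Kdm2b, Kdm3b, Kdm4b, Kdm5b and Kdm7a. Their 20 peaks had a median width of 580 bp, above the 358 bp of all shared gene-end peaks. Kmt2e had the second-widest peak of all, 2197 bp at chr5:23433159-23435355, inside the gene and wholly under a homecage peak of 2554 bp. Prdm2 (1153 bp, across the gene boundary) and Kmt5b (1092 bp, centred 582.5 bp into the gene) were the next widest of the list. Of 35 chromatin remodeler genes, 11 (31.4%, 16.9 to 49.3%) were carriers, among them the CHD genes Chd3, Chd4, Chd5, Chd6 and Chd8 and the BAF and PBAF subunit genes Arid1b, Arid2, Smarcd1 and Smarce1. Their widest peak was 1160 bp at Arid1b. The Chd8 peak (248 bp) is not at the gene start: it lies 558 bp beyond the 3′ end and also counts at Supt16. When the overlap had to span 50% of each peak, the share of remodeler genes over that of all genes moved from 2.73 to 1.27 (0.155 to 4.24). Histone genes, most of them in clusters, were carriers in 7 of 70 cases (10.0%, 4.12 to 19.5%), at 4 peaks. The peaks at the linker histone genes H1f0 and H1f10 stand alone, and the other 2 lie at neighbouring histone genes on chromosome 3 and were counted at each.

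Among genes for transcription, 82 of 455 C2H2 zinc finger genes (18%, 14.6 to 21.9%) had a shared gene-end peak, the largest count of any list. The widest were at Zfp532 (1475 bp, inside the gene, with a further peak of 572 bp outside it), Zfp628 (1344 bp, beginning 991 bp beyond the gene end) and Zfp987 (1166 bp wide, before the start). The Zfp628 peak also counts at Nat14 and Ssc5d. Zfp987 belongs to a cluster of related zinc finger genes on chromosome 4, with Zfp978, Zfp979, Zfp981, Zfp985, Zfp988, Zfp991 and Zfp992 also carriers, and reads from such near copies may be placed at the wrong member. By symbol stem, 14 of 40 Zbtb genes (35%, 20.6 to 51.7%) and 67 of 388 Zfp genes (17.3%, 13.6 to 21.4%) were carriers. RNA polymerase II and Mediator subunit genes were carriers in 8 of 41 cases (19.5%, 8.82 to 34.9%), with the widest peak at Med13 (515 bp).

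Of 20 circadian clock genes, 8 (40%, 19.1 to 63.9%) were carriers. They were Clock, a core activator, Per3 and Nr1d1 of the repressing arms, the output factors Dbp and Tef, the repressors Bhlhe40 and Bhlhe41, and the kinase gene Csnk1d. The Clock peak was 908 bp wide and 46.7% of it was under a homecage peak. The peaks at Per3 (218 bp), Nr1d1 (345 bp), Dbp (367 bp) and Tef (238 bp) were all centred 202.0 to 592.0 bp into the gene. The labels do not give the time of day at which tissue was taken.

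Of the developmental regulators, Hox genes had no shared gene-end peak. None of 39 Hox genes (0%, upper limit 9.03%) had a shared gene-end peak, and 11 of them (28.2%) had a homecage peak, against 64.3% of all genes. Of 19 with a promoter sequence 8 were CpG-rich, and 0 of 8 has an upper limit of 36.9%, which holds the 19.2% of all CpG-rich promoters. Fox, Sox and Pax genes were carriers in 6 of 68 cases (8.82%, 3.31 to 18.2%), an interval that holds 11.5%, with the widest peaks at Foxo6, Foxj3 and Sox12. None of 57 clustered protocadherin genes, which give neurons cell-surface identities, was a carrier (upper limit 6.27%), against 36 (63.2%) with a homecage peak. The protocadherin clusters lie on chromosome 18 and have no promoter entries, so their CpG content was not examined.

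Activity-induced genes, which neurons switch on after stimulation, were carriers in 5 of 28 cases (17.9%, 6.06 to 36.9%), an interval that holds the background. They were Egr1, Ier5, Jund, Nr4a1 and Nr4a2. The Ier5 peak was the widest (898 bp at chr1:155098578-155099475, centred 609.5 bp into the gene), and 82.9% of it lay under a homecage peak of 973 bp. The Egr1 peak was 254 bp wide with 40.6% under a homecage peak, and the Nr4a1 peak was 218 bp wide with 56.0%. In these 5 genes, then, a homecage peak covers between 40.6% and 100% of the learning peak.

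Synaptic genes were taken by the kind of protein. Of 21 postsynaptic scaffold genes, 7 (33.3%, 14.6 to 57.0%) were carriers: Dlg2 and Dlg4 (PSD-93 and PSD-95), Dlgap3, Dlgap4, Kalrn, Lrrc7 and Sipa1l1. The widest peak was at Dlg4 (935 bp, centred 1133 bp into the gene), but only 27.4% of it overlapped a homecage peak, and at Sipa1l1 only 10.8% of 752 bp did. When the overlap had to span 50% of each peak, the share of this list over that of all genes moved from 2.90 to 1.05 (interval 0.0267 to 5.27). Synaptic vesicle release genes were carriers in 6 of 36 cases (16.7%, 6.37 to 32.8%), with the widest at Cplx2 (1161 bp), a complexin gene. Counts for receptors and channels were 2 of 25 glutamate receptor genes (8.0%, 0.984 to 26.0%; Grm4 and Grin2d), 0 of 18 GABA receptor genes (upper limit 18.5%) and 5 of 79 potassium channel genes (6.33%, 2.09 to 14.2%). Their intervals hold 11.5%, and the Grin2d peak lies 971 bp inside the 3′ end of its gene, not at the start.

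Genes for protein synthesis had different shares by list, with intervals that overlap. Translation initiation factor genes were carriers in 14 of 53 cases (26.4%, 15.3 to 40.3%), with the widest peak at Eif1b (816 bp, across the start and wholly under a homecage peak). Where at least 50% of the learning peak had to be covered, their share over that of all genes moved from 2.30 to 1.22 (0.462 to 2.49). Cytosolic ribosomal protein genes, which are CpG-rich in 43 of 56 promoters, were carriers in 9 of 81 cases (11.1%, 5.21 to 20.0%), and mitochondrial ribosomal protein genes in 8 of 78 (10.3%, 4.53 to 19.2%). Within CpG-rich promoters the shares were 31.2% for initiation factors (10 of 32, 16.1 to 50%) and 9.30% for cytosolic ribosomal proteins (4 of 43, 2.59 to 22.1%), beside 19.2% for all CpG-rich promoters, and both intervals hold that value. Annotated ribosomal protein genes have many processed copies in the genome, and whether reads were split among them was not tested. A homecage peak lay at 60 of the 81 cytosolic genes (74.1%), beside 64.3% of all genes. Splicing factor genes (10 of 75, 13.3%) and aminoacyl-tRNA synthetase genes (3 of 20, 15.0%) had intervals that hold the background too.

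In protein turnover, 22 of 83 genes for ubiquitin E2 enzymes and ubiquitin proteases (26.5%, 17.4 to 37.3%) were carriers, with the widest peaks at Ube2m (942 bp), Ube2r2 (832 bp) and Ube2q2 (803 bp, centred on the start). Ube2q2 also had a peak of 558 bp beyond its 3′ end. When peaks narrower than 500 bp were dropped from both lists, which also takes out wide learning peaks with a narrow partner, as at Ube2r2 (homecage peak of 228 bp), the share of this list over that of all genes turned from 2.31 to 0.924 (0.112 to 3.23). Proteasome subunit genes, which act downstream of these enzymes, were carriers in 6 of 48 cases (12.5%, 4.73 to 25.2%), and heat shock and J-domain chaperone genes in 13 of 72 (18.1%, 9.98 to 28.9%). In metabolism, nuclear genes for oxidative phosphorylation were carriers in 17 of 94 cases (18.1%, 10.9 to 27.4%). The widest peak was at Uqcrh (1012 bp, 435 bp before the start), and it also counts at Lrrc41. None of 23 vacuolar ATPase genes was a carrier (upper limit 14.8%). Rab GTPases (10 of 54, 18.5%, 9.25 to 31.4%), solute carriers (45 of 374, 12%) and housekeeping reference genes (4 of 24, 16.7%) held the background.

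Gene families used in other tissues carried few of the peaks. Olfactory receptor genes were carriers in 2 of 1104 cases (0.181%, 0.0219 to 0.653%), at Olfr309 and Olfr774, although 519 of them (47.0%) had a homecage peak, and none of their 909 promoters was CpG-rich. Vomeronasal receptor genes were carriers in 11 of 352 cases (3.12%, 1.57 to 5.52%), in multicopy clusters whose reads cannot be placed with certainty. Keratins and their associated proteins (1 of 109, Krtap16-1), cytochrome P450 enzymes (2 of 98, Cyp2t4 and Cyp4x1), cytokines and chemokines (2 of 89, Cxcl12 and Il25) and defensins and serpins (1 of 133, Serpinb6a) were also below 11.5% with their intervals. The homecage shares of these lists were between 38.5% and 60.5%, below the 64.3% of all genes. At most 6 promoters in each of these 6 lists were CpG-rich, so they could not be compared at a matched CpG content. The Il25 peaks also count at Cmtm5, the Cyp2t4 peak at Egln2 and the Serpinb6a peak at Ripk1. Those at Krtap16-1, Cyp4x1 and Cxcl12 count at no other gene.

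Within CpG-rich promoters, where 19.2% carried a shared gene-end peak, all 8 lists above the background stayed above, and the interval of 3 excluded it: crotonylation genes (8 of 17, 47.1%, 23.0 to 72.2%), ubiquitin E2 enzymes and proteases (15 of 43, 34.9%, 21.0 to 50.9%) and C2H2 zinc finger genes (43 of 163, 26.4%, 19.8 to 33.8%). Histone methylation genes stood at 34.6% (9 of 26, 17.2 to 55.7%), chromatin remodelers at 30% (6 of 20, 11.9 to 54.3%), circadian clock genes at 33.3% (4 of 12, 9.92 to 65.1%) and postsynaptic scaffolds at 25% (1 of 4, 0.631 to 80.6%). At these numbers, a difference from other CpG-rich genes was not detectable for these 4 lists.

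Of the genes that define hippocampal cell types, 1 had a shared gene-end peak. None of 12 excitatory neuron markers (upper limit 26.5%), 13 interneuron markers (24.7%), 11 oligodendrocyte markers (28.5%), 12 microglia markers (26.5%) or 12 endothelial and mural markers (26.5%) had one. Of 12 astrocyte markers 1 did (8.33%, 0.211 to 38.5%), at Glul, the glutamine synthetase gene, with a peak of 232 bp wholly under a homecage peak of 1982 bp. Any homecage peak, shared or not, was at 9 of the excitatory, 4 of the interneuron, 10 of the astrocyte, 9 of the oligodendrocyte, 8 of the microglia and 4 of the endothelial and mural markers. Any learning peak was at 4 of the astrocyte (33.3%), 3 of the oligodendrocyte (27.3%) and 1 of the excitatory markers (8.33%) and at none in the other 3 lists, beside 16.5% of all genes. Each list is short, so these intervals all hold 11.5%. In tissue, a peak also does not say which cells carry it, and a mark in few cells cannot be told apart from a weak mark in many.

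Shared gene-end peaks had a median width of 358 bp, with 25th and 75th percentiles of 230 and 534 bp and a range from 146 to 2691 bp. Shared peaks away from gene ends were similar (4604 peaks, median 349 bp), and learning-only peaks were narrower, at gene ends (median 276.5 bp) and away from them (8071 peaks, 280.0 bp). A wider peak has more chance to overlap another, so width was partly selected. Where a shared gene-end peak overlapped more than 1 homecage peak (24 cases), the one with most overlap was taken. The overlapping homecage peaks were wider, with a median of 637 bp (382 to 993.5 bp). The learning peak was the wider of the pair in 548 cases (25.1%) and lay wholly inside a homecage peak in 888 (40.7%). A median of 89.6% of the learning peak was covered.

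**Figure D4:**
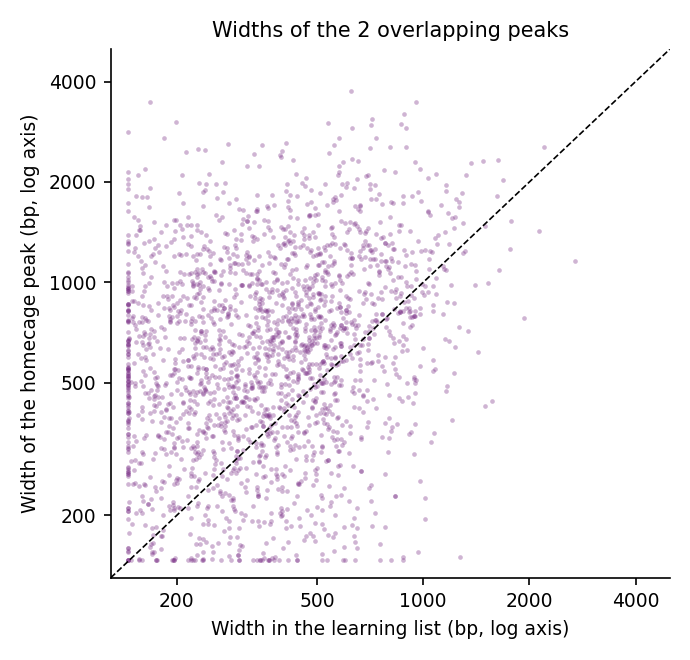
Width of the homecage peak with most overlap (y axis, bp, log scale) against the width of each of the 2183 shared gene-end peaks (x axis, bp, log scale), 1 point per shared peak, with a dashed line of equal width. Most points lie above the line, and the column of points at the left edge is at the smallest width in the learning list, 146 bp.

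The widest peaks were at genes of varied kinds. The widest, 2691 bp at chr19:5847404-5850094, was counted at the end of Frmd8, which lies 880 bp away. It lies 1923 bp from the lncRNA gene Neat1, the scaffold RNA of nuclear paraspeckles, and so is between the 2 genes. It overlaps 3 homecage peaks, which together cover 67.5% of it. After Kmt2e came Actg1, the gamma-actin gene (2125 bp, across the start, with 74.7% covered), and Larp6, an RNA-binding protein gene (1929 bp, across the start, 60.4%). Phlpp1, a phosphatase gene that acts on Akt, had 1770 bp inside the gene with 86.0% covered. Zc3h4 (1685 bp), Ncoa2, a nuclear receptor coactivator (1643 bp), Mta3, a NuRD subunit (1631 bp), and Bicra, a BAF subunit (1617 bp), followed, beside the predicted gene Gm51573 (1761 bp). The 10 include 4 genes for chromatin or coactivator proteins (Kmt2e, Ncoa2, Mta3 and Bicra), a description of 10 genes chosen by width.

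At 90 genes there were at least 2 shared gene-end peaks, and the largest number was 3, at Duxf3, Gm7609 and Hjurp. Duxf3, a copy of the Dux gene array on chromosome 10, had peaks of 417, 964 and 460 bp along its 3585 bp and just upstream, and its copies share sequence. Hjurp, a chaperone of the centromeric histone CENP-A, had peaks of 341 bp beyond its end, 977 bp inside its start and 163 bp upstream of the start, of which the last 2 overlap 1 homecage peak of 2180 bp. Short genes can have both ends under 1 peak, as Gpr62, an orphan receptor gene of 2024 bp, does with a peak of 953 bp that also counts at Pcbp4.

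The rule's limits cut through a continuum. The least overlap with a homecage peak among the shared gene-end peaks was 1 bp at Hmga1 and at Scamp5 and 2 bp at Tmem141. Just outside, the learning-only peaks at Fbxo36 and Mtx3 abut a homecage peak with 0 bases between, and that at Ccdc171 is 1 base away. Of the 986 learning-only peaks at gene ends, 328 (33.3%) had a homecage peak within 500 bp. In distance, the farthest included peaks were 998 bp from the gene end at Krba1 and Aldoa and 991 bp at Sp140, and the nearest excluded shared peaks were at 1002 bp (Dcaf5), 1006 bp (Aatk) and 1008 bp (Bin1).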

How the data were processed

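Pan-Kcr ChIP-seq peak lists of 2 of the 12 libraries were used, 1 per condition. The labels put a library in its condition. The deposited files hold peak positions, from which widths follow, and no other measurement; their peak names state broad peaks at a p-value threshold of 0.01. Trimmomatic, BWA and MACS2 and the build mm10 come from the submitters' processing notes. The control library, the read filters, any pooling and the read depth are not given in the sources used here.

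Gene positions and 250+50-base promoter sequences came from RefSeq tables of GRCm38.p6. Peaks were matched to windows of 1 kb at gene ends, with positions counted from 1. A strand was taken from a promoter entry whose start lies within 1 kb of a gene boundary. Peaks on X, Y and unplaced sequences were left out of the counts. Lists were matched by symbol, and 9 symbols that a name pattern took in error were removed after the counts had been seen. The members and lists were chosen with earlier results of these data known. Genes named are the 10 with the widest peaks, the 5 with the most, the 5 with the widest at both ends, up to 3 per list and the neighbours of the thresholds. Further genes were named after their values were seen, as the carriers of a list. Some items are not reported here. The counting functions were tested on simulated lists. Alternatives were stricter overlaps, other windows, peak centres, merging of peaks closer than 1 kb, peaks of at least 500 bp, X and Y added, and genes without predicted names. The tools were scipy 1.17.1, pandas 2.3.3, numpy 2.4.6, matplotlib 3.10.9 and biopython 1.88 under Python 3.11.15.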

Additional observations from a re-analysis of the deposited data

Results flagged for a closer look

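On sequences not placed on a chromosome, which no count above used, 196 of 241 learning peaks (81.3%) overlapped a homecage peak. No expected share was set for these sequences, so the count is a description. On chromosomes 1 to 19 the share was 68.9% at gene ends and 36.3% away from them. Unplaced sequences were not split by gene ends.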

How the results depend on the processing

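No paired analysis was possible because there was a single antibody library for learning and for homecage, and for the same reason no replicate could be left out. Of 493 alternative values, 431 kept their direction and moved less than counting error or 1.5 times, 59 moved and 3 changed direction. The causes were not tested beyond the smaller numbers each alternative leaves. The 431 include values with X and Y added, which could bring no carrier. Of the 8 lists above the background, 6 kept their interval above it with 50% of the learning peak covered. With 50% of both peaks 4 did, with peaks of at least 500 bp 4, and within CpG-rich promoters 3. Of the 8 lists below, 8, 5 and 2 kept theirs in the same order, and 0 of 6 within CpG-rich promoters. With other windows, peak centres, merging, X and Y or no predicted names, all 8 of each kept theirs. Class values are the share of carriers over that of all genes. With 50% of the learning peak covered, the width excess over other learning peaks was 39.0 bp (58.0 bp as reported), translation initiation factors were at 1.22 (2.30), and olfactory receptors and defensins and serpins at 0. With 50% of both peaks covered, 836 peaks at 933 genes remained, the CpG-rich difference was 35.4 points (37.8), the width excess 143 bp, zinc fingers 1.95, remodelers 1.27, ubiquitin genes 3.47, postsynaptic scaffolds 1.05, vomeronasal receptors 0.0629, and olfactory receptors, keratins, P450 enzymes and defensins and serpins 0. With only peaks of at least 500 bp kept in both lists, 484 peaks at 539 genes remained, the CpG-rich difference was 32.9 points, the width excess 76.0 bp, histone methylation 8.02 and remodelers 6.57, and ubiquitin genes changed direction to 0.924; olfactory and vomeronasal receptors, keratins, P450 enzymes and defensins and serpins were at 0. The share at starts was 96.4% with 500 bp windows, 91.8% with 3 kb windows (CpG-rich difference 33.9 points) and 95.9% without predicted genes. Chosen after seeing the data, a stricter CpG threshold (0.75 and 55% G+C) gave 34.7 points. Also chosen then, CpG-rich promoters alone gave 1.80 for histone methylation, 0 for vomeronasal receptors, keratins and P450 enzymes, and a changed direction for cytokines (1.04) and for defensins and serpins (2.61), each on 1 carrier. Peak centres and merging moved no class value. X and Y hold no shared gene-end peak, so adding them could bring no carrier.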

Other observations

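Symbol stems with at least 40 genes (34 stems) give a view by name that partly overlaps the lists. Map genes, which are mostly mitogen-activated protein kinases and microtubule-associated proteins, had the largest share with a shared gene-end peak, 17 of 44 (38.6%, 24.4 to 54.5%). Genes whose symbols begin with Rab, more than the Rab GTPases of the list, stood at 14 of 65 (21.5%, 12.3 to 33.5%), where the list held the background. Rnf genes of RING-finger ubiquitin ligases stood at 16 of 80 (20.0%, 11.9 to 30.4%) and Atp genes at 16 of 79 (20.3%, 12 to 30.8%). Tmem genes, a mixed set of membrane proteins, stood at 35 of 231 (15.2%, 10.8 to 20.4%), which holds the 11.5% of all genes. The stems Defb, Krt, Pramel and Scgb, of defensins, keratins, and germline and secretory proteins, had none.

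On chromosomes X and Y no shared peak lay at any end of 1222 protein-coding genes, with 120 learning peaks on X and 38 on Y. A shared peak also needs a homecage peak. Of the 332168 homecage peaks on all sequences, 329508 lay on chromosomes 1 to 19, and the number on X and Y is not given here. Whether the absence reflects few homecage peaks on X and Y was not tested, so it is not a result about these genes.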
